A study of Mus musculus and Homo sapiens with 83 samples.

Results

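The proteasome subunit genes of the mouse were followed in single mouse embryonic stem cells (mESCs) during undirected differentiation. Members were all genes whose symbol is Psma, Psmb, Psmc or Psmd followed by a number, 39 of 55401 gene IDs. The core is encoded by 19 of them (8 Psma and 11 Psmb). The other 20 (6 Psmc and 14 Psmd) are called cap genes here by symbol. They include Psmd5, Psmd9 and Psmd10, which encode assembly chaperones of the cap, and cap values without these were not computed. Of the core genes, 14 are standard subunits of most tissues, and Psma8, Psmb8, Psmb9, Psmb10 and Psmb11 are tissue-restricted or inducible.

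The proteasome is the protease that degrades proteins tagged with ubiquitin. Its barrel-shaped core stacks rings of alpha subunits (Psma), which gate the entrance, and beta subunits (Psmb), of which Psmb5, Psmb6 and Psmb7 hold the standard catalytic sites. The cap recognises and unfolds substrates: a ring of ATPases (Psmc) pulls the chain into the core, and the Psmd proteins include scaffolds, ubiquitin receptors and a deubiquitinase. In cells exposed to interferon and in immune cells, Psmb8, Psmb9 and Psmb10 replace Psmb5, Psmb6 and Psmb7 to form the immunoproteasome, whose peptides are presented on MHC class I. In embryonic stem cells the proteasome is known for clearing damaged proteins, and in human embryonic stem cells the lid subunit PSMD11 is known to be abundant.

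RNA was measured by AMAR-seq, which separates the cytoplasm of a cell from its nucleus on a chip and sequences the cytoplasmic RNA by a Smart-seq2 protocol. All 24 mESC libraries were of the E14 line (129/Ola), each from 1 cell. The 6 day 0 cells were grown on fibroblast feeder cells with LIF, the cytokine that maintains self-renewal, and the 7 cells of day 3, 6 of day 6 and 5 of day 9 had been replated on gelatin without feeders or LIF. The labels name no separate cultures, so each day stands for 1 sample: no test between days was possible, and the time without LIF cannot be told apart from anything else that the cells of a day shared.

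Reads on genes numbered 3913595 to 16367029 per library. A single gene, CT010467.1, took 13.0% to 75.2% of them, which lowers the CPM (reads per 1e6 gene reads) of all others. Mitochondrially encoded reads made up more than 10% of 4 of the 6 day 0 libraries, with up to 24.2%, and those 4 held reads on 5660 to 11626 genes, against 15503 and 16972 in the other two. Reads were present on 6 or 7 of 8 pluripotency markers in every library. Sox2, a core pluripotency factor, was listed at 0 in all 24, as were B2m, the light chain of MHC class I, and Psmb10. Fibroblast markers summed to 42.2 to 384 CPM at day 0 and to 23.3 to 147 CPM at the later days. The 384 CPM were in day 0 cell 6, which also had the highest CT010467.1 share of that day, 58.1%. Cells 5 and 6 are the 2 day 0 cells below 10% mitochondrially encoded reads. Of the members, 9 overlap another RefSeq gene, among them Psmb5, Psmb7, Psmd1, Psmd10 and Psmd13, and reads that could not be assigned to 1 gene had been kept apart in the files. Within a library, 3 reads corresponded to 0.183 to 0.767 CPM.

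The 150 bases upstream of the transcription start are shown for Psmb5 with its inducible counterpart Psmb8, for Psmb9, and for Psmc2 and Psmd13, the cap genes whose cells did not overlap between day 0 and day 6. Sequences are from RefSeq (GRCm38.p6), 5′ to 3′ on the gene's strand. Capitals mark matches on either strand to TGACNNNGC, the core of the element bound by the proteasome regulator Nfe2l1, to CCAAT, or to the interferon-related patterns GAAA, any 2 bases, GAAA (the core of the interferon-stimulated response element) and TTCNNNGAA.
Psmb5, chr14:54617996-54618145, minus strand: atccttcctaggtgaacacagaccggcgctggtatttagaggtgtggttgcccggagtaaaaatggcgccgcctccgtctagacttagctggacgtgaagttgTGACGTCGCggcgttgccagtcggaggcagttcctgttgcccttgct
Psmb8, chr17:34198045-34198194, plus strand: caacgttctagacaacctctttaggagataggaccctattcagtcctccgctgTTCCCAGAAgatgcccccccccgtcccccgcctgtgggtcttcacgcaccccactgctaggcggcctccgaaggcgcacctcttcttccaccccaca
Psmb9, chr17:34187331-34187480, minus strand: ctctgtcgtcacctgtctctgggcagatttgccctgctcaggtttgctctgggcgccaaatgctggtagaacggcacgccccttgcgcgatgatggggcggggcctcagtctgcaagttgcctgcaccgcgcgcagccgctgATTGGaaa
Psmc2, chr5:21785125-21785274, plus strand: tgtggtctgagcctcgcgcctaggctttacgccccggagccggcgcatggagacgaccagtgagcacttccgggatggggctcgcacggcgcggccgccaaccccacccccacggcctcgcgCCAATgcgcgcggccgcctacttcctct
Psmd13, chr7:140882244-140882393, plus strand: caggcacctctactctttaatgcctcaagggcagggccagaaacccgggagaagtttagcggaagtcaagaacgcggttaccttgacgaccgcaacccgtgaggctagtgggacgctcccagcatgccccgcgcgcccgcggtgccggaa

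Psmb5 carried TGACGTCGC, starting at position -47 from the transcription start, and Psmb8 carried TTCCCAGAA at -97. In Psmb9 the match, at -8, was ATTGG, the reverse complement of CCAAT, and in Psmc2 it was CCAAT at -28. No searched pattern lay in the window of Psmd13. Over 250 upstream bases, TGACNNNGC was found in 5 of 34 promoters of the 32 members with a promoter (14.7%; Psmb5, Psmb6, Psmc6, Psmd9 and Psmd12), and in 10.2% of all 32851 promoters. CCAAT was found in 38.2% of the members' promoters and 33.8% of all. The interferon-stimulated response element core was found in 8.82% and 2.98%, in Psmb3, Psmd4 and Psmd9, and TTCNNNGAA in 2.94% and 7.02%, in Psmb8. The last pair was searched after the data had been seen.

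Read per library, most subunit genes were present in most cells. Of the 39 genes, 22 had reads in all 24 cells, and Psma8, Psmb8, Psmb9, Psmb10 and Psmb11 had reads in 19, 11, 16, 0 and 3 of them. Summed over the cells of a day, all subunit genes together stood at 3880, 4460, 6686 and 6814 CPM at days 0, 3, 6 and 9. The exact Poisson 95% interval at day 0 was 3862 to 3898, and it covers counting error only. Between cells the sum ranged from 2483 to 4674, 2157 to 7411, 4933 to 9480 and 1219 to 8728 CPM on these days. The day 6 cells thus all stood above the day 0 cells on this scale. With CT010467.1 left out of the totals, the sums were 7228, 9781, 10252 and 9598 CPM, and the cells of day 0 and day 6 overlapped.

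**Figure D1:**
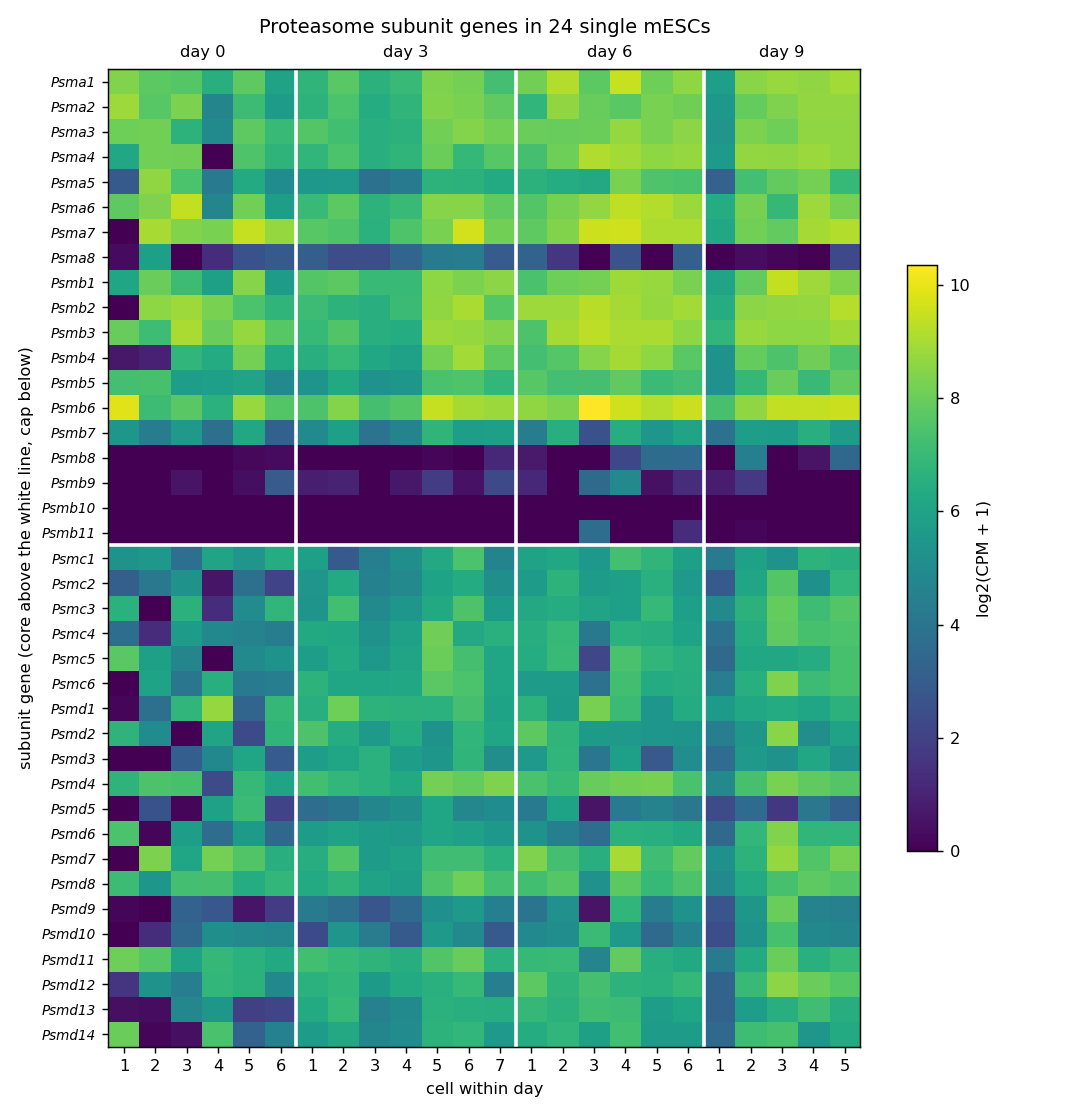
Level of each of the 39 subunit genes in each of the 24 cells, as log2(CPM + 1) by colour, with core genes above and cap genes below the white line; columns are cells grouped by day. Dark squares among the cap genes lie mainly in day 0 cells, and Psmb10 is at 0 in all 24 cells.

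Core genes took 70.3%, 61.6%, 71.0% and 64.3% of subunit reads at days 0, 3, 6 and 9. By cell, the core share was 66.6%, 76.9%, 79.6%, 44.6%, 77.6% and 61.6% in day 0 cells 1 to 6. It ranged from 53.4% to 69.1% with a median of 57.6% at day 3, and from 58.6% to 80.1% with a median of 72.8% at day 6. At day 9 it was 71.4%, 71.3%, 53.0%, 70.9% and 68.5%. The day 3 cells were low as a group, but the days overlapped, and at day 9 cell 3 stood apart from the other 4 cells. Without day 9 cell 3 the share of that day was 70.0%, and without day 0 cell 4 that of day 0 was 73.2%.

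**Figure D2:**
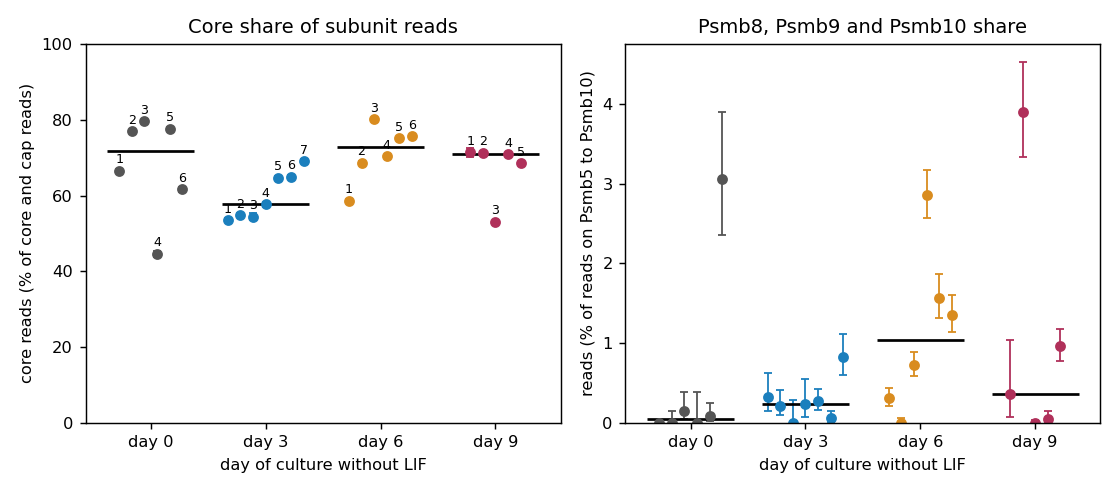
Left, reads on core genes as a percentage of reads on core and cap genes in each cell, numbered, by day; right, reads on Psmb8, Psmb9 and Psmb10 as a percentage of reads on the 6 catalytic genes Psmb5 to Psmb10. Bars are exact binomial 95% intervals of counting error and lines are medians over cells; day 9 cell 3 stands at 53.0% on the left, and on the right the highest cell of each day stands at 3.06%, 0.830%, 2.86% and 3.90%.

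To set members against the transcriptome, the log2 ratio of CPM + 1 between days was taken relative to its median over all genes with at least 20 reads, which was 0.09 for day 3 against day 0, 0.49 for day 6, 0.71 for day 9 and 0.64 for day 9 against day 3. The comparisons with day 0 share the same 6 cells, so they are given side by side. At day 3, 7 of the 36 members with enough reads were at least 2-fold higher, where 20.7% of all genes were, and 1 was at least 2-fold lower, where 23.5% of all genes were. At day 6, 9 of 38 were higher and 1 lower (25.4% and 23.1% of all genes). At day 9, 8 of 37 were higher and 4 lower (25.2% and 23.8%), and with TMM scaling 7 and 7. These counts of higher members were near the share of all genes, and those of lower members were below it.

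Some of these ratios depended on 1 cell. Those that stayed at least 2-fold higher when any 1 cell was left out were 6 members at day 3, 5 at day 6 and 7 at day 9, where 11.9%, 11.8% and 10.8% of all genes were. Members that stayed lower were 0, 0 and 2 (Psma8 and Psmd5), where 6.22%, 6.50% and 7.16% of all genes were. In the cap, the higher ones were 6 of 20 at day 3, 4 at day 6 and 6 at day 9, and among the 14 standard core genes 0, 0 and 0; the remaining one at day 6 and at day 9 was Psmb8. Against day 0 the cap genes had a median relative log2 ratio of 0.45 at day 3, 0.30 at day 6 and 0.55 at day 9, and the standard core genes -0.10, 0.35 and 0.07. The cap median exceeded that of the standard core by 0.55 at day 3, by 0.34 to 0.83 when any 1 cell was left out. At day 6 the difference was -0.06, with a range of -0.25 to 0.28. At day 9 it was 0.49, and -0.06 without day 9 cell 3. Over the 2 day 0 cells below 10% mitochondrially encoded reads, the difference was 0.48 at day 3, -0.27 at day 6 and 0.088 at day 9.

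**Figure D3:**
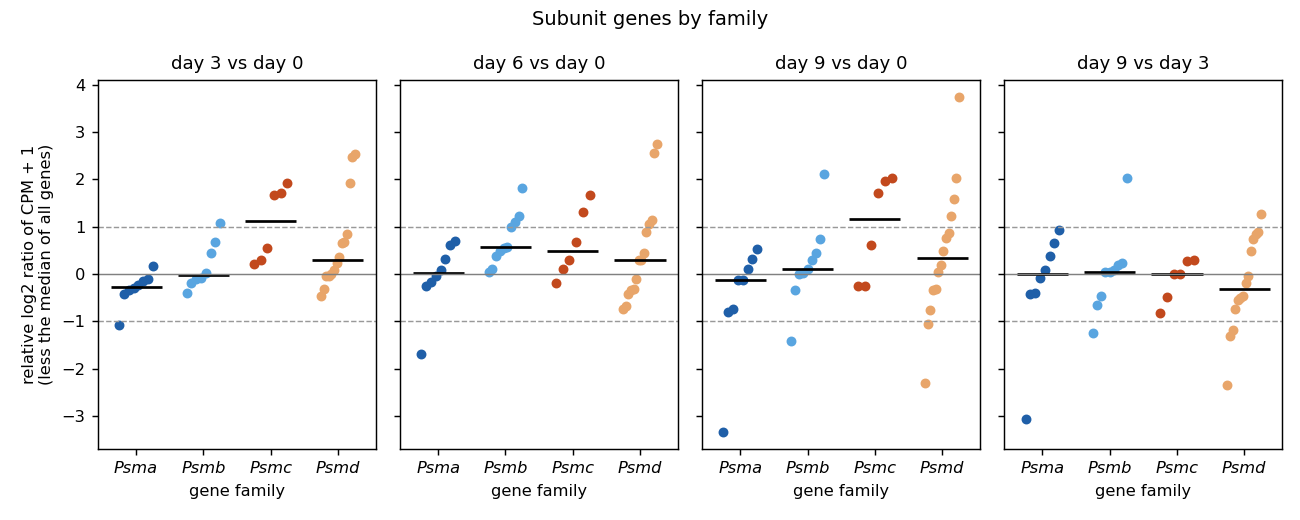
Relative log2 ratio of each member with enough reads, by gene family and comparison; lines are family medians and dashed lines mark a 2-fold difference. The Psmc family lies highest at day 3 and day 9 against day 0, with medians of 1.12 and 1.16.

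The ATPase ring genes (Psmc1 to Psmc6) had the highest median ratio of the 4 families at day 3 and day 9. Together they stood at 243, 500.4, 477 and 733 CPM at days 0, 3, 6 and 9. At day 3 all 6 had a positive relative log2 ratio, from 0.21 to 1.93, with a median of 1.12. The median was 0.70 to 1.54 when any 1 cell was left out, and 1.51 over the 2 day 0 cells below 10% mitochondrially encoded reads. At day 6 the median was 0.48, and at day 9 it was 1.16, with 4 of 6 positive. The Psmd genes had medians of 0.30, 0.29 and 0.34, the Psma genes -0.26, 0.02 and -0.13, and the Psmb genes -0.03, 0.57 and 0.12.

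Psmc2 (Rpt1 in yeast; chromosome 5, 21785275 to 21803787, mm10) had 0.517 CPM in the lowest, 10.5 in the median and 38.9 in the highest cell of day 0. The lowest, median and highest were 22.1, 41.7 and 81.9 CPM at day 3, and 47.7, 53.9 and 102 at day 6. At day 9 the cells had 6.64, 66.2, 191, 35.8 and 113 CPM. Every day 6 cell thus stood above every day 0 cell, while single cells overlapped at day 3 and day 9. Its relative log2 ratio was 1.71 at day 3, 1.68 at day 6 and 2.03 at day 9. When any 1 cell was left out, the day 3 ratio was 1.29 to 2.35.

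Psmc4 (Rpt3) was lowest at 1.46, median 21.9 and highest 51.4 CPM at day 0, against 38.2, 75.6 and 275 at day 3 and 17.0, 86.4 and 121 at day 6. The day 9 cells had 14.1, 83.3, 226, 161 and 173 CPM. Each later day overlapped day 0 in its lowest cell or cells. The relative log2 ratios were 1.93, 1.30 and 1.96, and all 3 were above 1 when any 1 cell was left out. Psmc6 (Rpt4) stood at 31.1, 109, 70.9 and 171 CPM summed over days 0, 3, 6 and 9, with relative ratios of 1.68, 0.67 and 1.71. Over the 2 day 0 cells low in mitochondrially encoded reads, the day 6 ratio was 1.11. In Psmc1, Psmc3 and Psmc5 the relative ratios lay between -0.26 and 0.61, below 2-fold on every day. Psmc5 rested on day 0 cell 1, with 205 CPM: its day 3 ratio was 0.55, and 1.62 without that cell.

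In the lid, the part of the cap that removes ubiquitin, Psmd13 (Rpn9; chromosome 7, 140882394 to 140898642) showed the largest ratio of the members at day 3. At day 0 its lowest, median and highest cells had 0.265, 3.21 and 43.8 CPM. They had 21.8, 86.7 and 121 CPM at day 3, and 55.3, 110 and 144 at day 6. The day 9 cells had 8.69, 52.7, 90.0, 145 and 85.7 CPM. All 6 day 6 cells were above all day 0 cells, as with Psmc2; these were 2 of 38 members, and 1.26% of all genes had that pattern. The relative log2 ratio was 2.54, 2.56 and 2.02 at days 3, 6 and 9, and 3.90, 3.93 and 3.43 over the 2 day 0 cells low in mitochondrially encoded reads. No member was lower at day 6 without overlap (0.192% of all genes), and at day 3 and day 9 no member was higher (1.80% and 2.11%) or lower (0.413% and 0.193%) without overlap with day 0.

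Psmd3 (Rpn3) had 0, 7.31 and 66.1 CPM in the lowest, median and highest day 0 cells and 33.5, 55.3 and 108 at day 3. Its relative ratio was 1.93 at day 3, but 0.71 over the 2 day 0 cells low in mitochondrially encoded reads. Psmd12 (Rpn5) stood at 44.0 CPM summed over day 0 and at 84.8, 139 and 221 CPM at the later days, with relative ratios of 0.84, 1.15 and 1.60. Over those 2 day 0 cells the ratios were 0.24, 0.56 and 1.04. In the day 9 cells it had 9.20, 124, 378, 256 and 194 CPM, so that all but the first exceeded the highest day 0 cell at 114 CPM. Psmd14, the deubiquitinase Rpn11, had 257 and 164 CPM in day 0 cells 1 and 4 and between 0.132 and 22.2 in the other day 0 cells. Its ratios of -0.31, -0.32 and -0.32 became 0.95, 0.92 and 0.91 without cell 1. Psmd11 (Rpn6) had ratios of -0.03, -0.74 and -0.75. Psmd7 (Rpn8, the partner of Psmd14) had -0.47, 0.29 and 0.04. Psmd6 (Rpn7) had -0.04, -0.42 and 0.87, which became 1.05, 0.65 and 1.95 without day 0 cell 1.

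Psmd5, Psmd9 and Psmd10 encode chaperones that assemble the ATPase ring in human cells and yeast and then leave it. Psmd9 had 0, 1.55 and 8.53 CPM in the lowest, median and highest day 0 cells, 5.73, 17.8 and 46.9 at day 3, and 0.450, 28.4 and 111 at day 6. The day 9 cells had 5.62, 43.4, 253, 23.9 and 21.5 CPM. All but 1 of the cells at each later day stood above the highest day 0 cell. The relative log2 ratio was 2.47, 2.75 and 3.75 at days 3, 6 and 9, the last 2.08 without day 9 cell 3. Psmd10 was at 15.6, 21.6, 42.3 and 62.5 CPM summed over the days, and its day 9 ratio of 1.23 was 0.05 without the same cell.

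Psmd5 went the other way. At day 0 it was uneven, with 59.8 and 132 CPM in cells 4 and 5 and 0 to 5.17 in the others. It had 12.2, 26.7 and 69.1 CPM in the lowest, median and highest cells of day 3 and 0.450, 17.8 and 62.7 at day 6. At day 9 the cells had 4.09, 11.4, 2.17, 16.4 and 8.18 CPM. The relative ratio to day 0 was 0.01, -0.67 and -2.30, but the day 9 median over cells was not below that of day 0: from medians the ratio was 0.18. Cell 5, the highest, is one of the 2 day 0 cells low in mitochondrially encoded reads, and over those the ratios were -1.24, -1.91 and -3.51. Against day 3, where all cells held the gene, it was -2.34, and -2.58 to -1.97 when any 1 cell was left out, although the highest day 9 cell stood above the lowest day 3 cells.

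**Figure D4:**
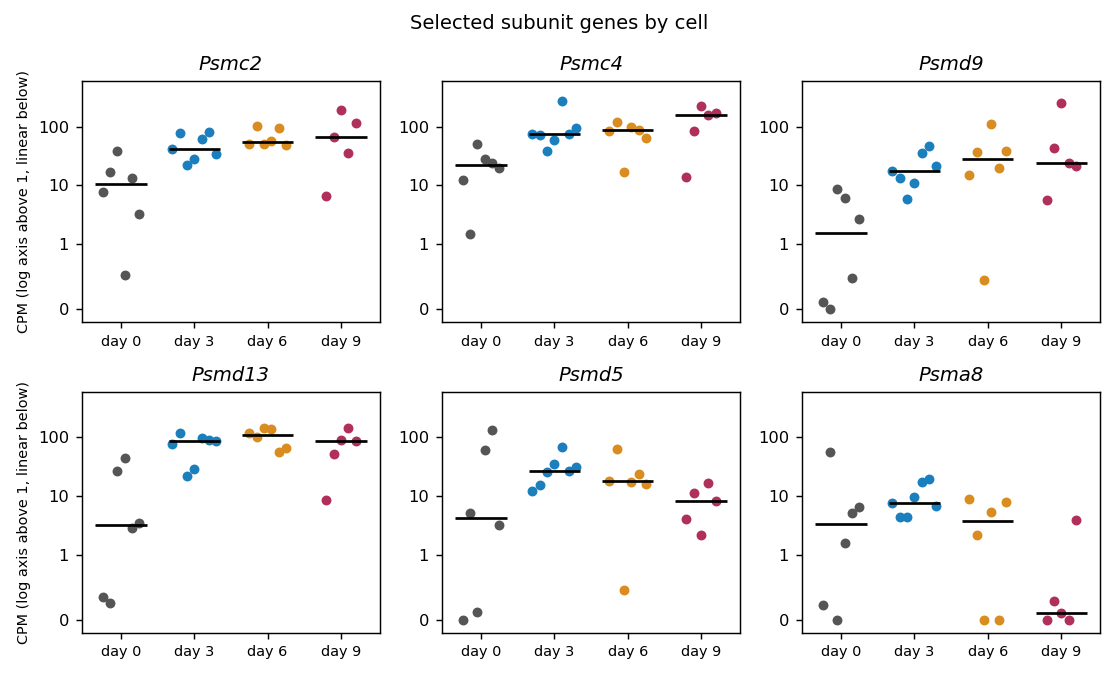
CPM per cell of 6 members by day, on an axis that is logarithmic above 1 CPM and linear below; lines are medians over cells. Psmc2, Psmc4, Psmd9 and Psmd13 have most of their later cells above day 0, Psmd5 and Psma8 are lower at day 9 than at day 3, and single cells at 0 or near it are seen on most days.

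Between day 9 and day 3, 2 of 37 members passed 2-fold upwards and 5 downwards (21.1% and 19.3% of all genes). Without any 1 cell, 1 stayed higher and 4 lower (7.61% and 9.28%). The one that stayed higher was Psmb8, and those that stayed lower were Psma8, Psmd5, Psmd1 and Psmd3. Psmd1 (Rpn2, a scaffold of the cap) had 63.8, 99.3 and 269 CPM in the lowest, median and highest day 3 cells and 48.3, 73.8, 80.9, 69.2 and 99.4 at day 9. Its summed CPM was 0.623 times that of day 3, and the relative log2 ratio -1.31. Psmd3 had a relative ratio of -1.18. The median was 0.07 for the standard core genes and -0.12 for the cap, with the latter 0.23 when medians of CPM over cells were used.

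Psma8, the alpha subunit that replaces Psma7 in the testis, had 0, 3.35 and 56.8 CPM in the lowest, median and highest day 0 cells and 4.42, 7.66 and 19.1 at day 3. At day 6 the cells had 0 to 8.86 CPM, with a median of 3.74. At day 9 they had 0, 0.282, 0.104, 0 and 3.87 CPM, all below the lowest day 3 cell; this was 1 of 37 members, and 0.499% of all genes were lower and 1.60% higher without overlap. The ratio of CPM to day 3 was 0.104, with an exact interval of 0.0726 to 0.144 for counting error. Its relative log2 ratio was -3.07, and -3.34 against day 0. Of the 530 reads of day 0, most came from cell 2, without which that ratio was -1.53.

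The other alpha genes varied less. Psma1 to Psma7 had relative ratios of -1.09 to 0.17, -0.26 to 0.69 and -0.80 to 0.54 at days 3, 6 and 9. Psma5 was the lowest at day 3, at -1.09. It had 397 CPM in day 0 cell 2, and without that cell the ratio was -0.16. Psma7, the standard counterpart of Psma8, was listed at 0 in day 0 cell 1 and had 308 to 694 CPM in the other day 0 cells. The day 3 cells had 98.1, 200.5 and 807 CPM in the lowest, median and highest, and the relative ratios were -0.33, -0.05 and -0.73. Over the 2 day 0 cells low in mitochondrially encoded reads, the ratios of Psma7 were -1.11, -0.81 and -1.46, at least 2-fold lower at days 3 and 9. Psma6 had ratios of -0.43, 0.08 and -0.80.

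Among the beta genes that are not catalytic, Psmb1 had relative ratios of 0.67, 0.58 and 0.75, Psmb2 of -0.10, 0.55 and 0.12 (1.12 at day 6 over the 2 day 0 cells low in mitochondrially encoded reads), and Psmb3 of -0.39, 0.04 and -0.33. Psmb4 had 0.573 and 0.927 CPM in day 0 cells 1 and 2 and 79.2 to 290 in the other 4. It was 1.07 at day 3 and 1.22 at day 6, the largest among the standard core genes on both days. Over the 2 day 0 cells low in mitochondrially encoded reads these values were -0.09 and 0.07. The part of RNA quality in the ratio was not tested.

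The standard catalytic genes were present in every cell. Psmb6 (the beta1 site) had 96.5, 199.7 and 938 CPM in the lowest, median and highest day 0 cells, 157, 339.5 and 693 at day 3 and 323, 658 and 1306 at day 6. The day 9 cells had 163, 397, 676, 678 and 734 CPM. Psmb5 (beta5) stood at 87.0, 94.6, 173 and 174 CPM summed over days 0, 3, 6 and 9, and Psmb7 (beta2) at 33.1, 48.6, 50.3 and 55.0. The relative log2 ratios of these genes to day 0 lay between -0.08 and 0.50, and the cells of the days overlapped. Single day 0 cells weighed on these values. Without day 0 cell 1, which held the 938 CPM, the ratios of Psmb6 were 0.72, 1.17 and 0.80 at days 3, 6 and 9. Over the 2 day 0 cells low in mitochondrially encoded reads, those of Psmb5 were 0.78, 1.26 and 1.09.

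The inducible catalytic genes were rare by comparison. Psmb8, Psmb9 and Psmb10 together took 0.327%, 0.305%, 1.23% and 0.868% of reads on the 6 catalytic genes at days 0, 3, 6 and 9. The exact binomial 95% intervals were 0.255% to 0.412%, 0.246% to 0.374%, 1.14% to 1.32% and 0.766% to 0.979%, for counting error only. Over cells the medians were 0.0425%, 0.237%, 1.04% and 0.357%, and the highest cells had 3.06%, 0.830%, 2.86% and 3.90%. Of the 70 reads at day 0, 63 were in cell 6, without which the share was 0.0361%. Without day 9 cell 2, that of day 9 was 0.370%. The days overlapped, since each held a cell at 0.

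Psmb8 (beta5i) had 3 reads at day 0, in 2 cells, and 12 at day 3, of which all but 1 came from cell 7. At day 6 it had 292 reads: the cells stood at 0.672, 0, 0, 3.74, 11.8 and 11.4 CPM. At day 9 it had 240, and the cells stood at 0, 20.9, 0, 0.442 and 9.84 CPM. Psmb8 thus reached 1 CPM in 3 of 6 cells at day 6, in 2 of 5 at day 9, and earlier in 1 day 3 cell, at 1.27 CPM. The ratio of CPM to day 0 was 64.9 at day 6 (22.0 to 316) and 99.8 at day 9 (33.7 to 487), with exact intervals that cover counting error only. Of the 240 reads, 148 came from day 9 cell 2. The relative log2 ratio at day 9 was 2.12, 1.32 without that cell, and -0.12 from medians over cells, which turns its direction. In day 9 cell 2, Psmb8 took 15.0% of the reads on Psmb8 and Psmb5.

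Psmb9 (beta1i) had 67, 79, 442 and 19 reads at days 0, 3, 6 and 9. Day 0 cell 6 held 6.93 CPM and the other day 0 cells 0 to 0.474. At day 6 the cells had 1.22, 0, 10.8, 28.6, 0.378 and 1.58 CPM, and at day 9 0.767, 2.25, 0, 0 and 0. The same cell was highest for Psmb8 and Psmb9 at day 0 (cell 6), day 3 (cell 7) and day 9 (cell 2), and at day 6 cell 4 was highest for Psmb9 and cell 5 for Psmb8. The match at day 0 rested on 2 Psmb8 reads in cell 6 against 1 in cell 5. At day 9, Psmb9 had only 16 reads in cell 2 and 3 in cell 1. Day 0 cell 6 also had the highest fibroblast markers, with 384 CPM and reads on 9 of 10, among them Col1a2 at 81.0 CPM and Dcn at 22.4. The part of feeder RNA in that value was not tested. Haematopoietic markers summed to 0 to 111 CPM at day 6 and 5.53 to 83.8 at day 9. Ptprc, the defining one, was at 0 in all of those cells, but other markers on the list had reads. The 111 CPM, with reads on 4 markers, were in day 6 cell 5, the cell highest for Psmb8 on that day. The 83.8 CPM were in day 9 cell 3, where Psmb8 was at 0. The part of haematopoietic RNA in the Psmb8 values was not tested.

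**Figure D5:**
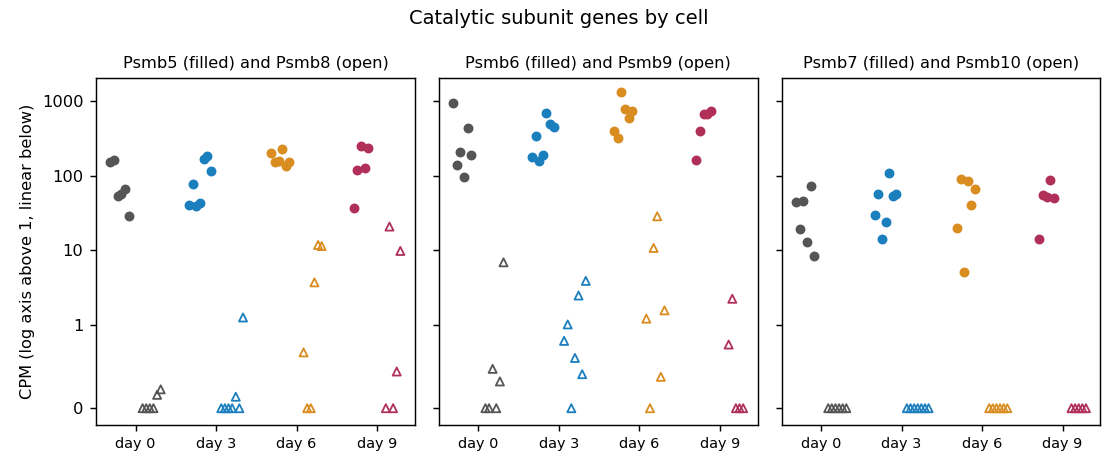
CPM per cell of each standard catalytic gene (filled circles) and its inducible counterpart (open triangles) by day, on an axis that is logarithmic above 1 CPM and linear below. Psmb8 reaches 1 CPM in 1 cell of day 3, 3 of day 6 and 2 of day 9, and Psmb10 is at 0 in all 24 cells.

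Psmb10 (beta2i) was listed at 0 in every library. Since Sox2 and B2m were likewise at 0, this is not read as absence of the transcript. Psmb11, the beta subunit of thymic epithelium, had 123 reads in 3 cells, with 12.0 CPM in day 6 cell 3, 1.48 in day 6 cell 6 and 0.141 in day 9 cell 2. Of the genes that act with the immunoproteasome, Tap1, the peptide transporter whose gene shares a promoter region with Psmb9, had 12.4 CPM in day 0 cell 6. At day 6 it had 7.85 and 33.6 CPM in cells 4 and 5 and 0 in cell 3, where Psmb9 had 10.8. Tap1 was at 0 in day 3 cell 7 and at 0.423 CPM in day 9 cell 2, the cells highest for Psmb8 and Psmb9 on those days. Irf1, an interferon-induced transcription factor, was at 0.967 CPM summed over day 0 and at 14.1 at day 9, and H2-D1, an MHC class I heavy chain, at 4.59 and 28.1. Their relative ratios at day 9 were 2.24 and 1.67, and both stayed above 1 without any 1 cell. Other genes of the same list did not rise: H2-K1, also an MHC class I heavy chain, had -0.19. Tap1 had -1.43, with a range of -2.22 to 0.20 when any 1 cell was left out. In the list of 9 antigen presentation and interferon genes, 7 had enough reads at day 9, of which 3 were at least 2-fold higher and 1 lower (25.2% and 23.8% of all genes).

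Subunit genes varied between cells of the same day. At day 0 the median coefficient of variation of CPM was 0.736 over the 14 standard core genes, 0.952 over the cap genes and 1.17 over all genes of at least 20 CPM. It was 0.595, 0.543 and 0.559 at day 3, 0.392, 0.590 and 0.738 at day 6, and 0.511, 0.697 and 0.818 at day 9. As a share of a cell's subunit reads, it was 0.666 for the core and 1.05 for the cap at day 0, and 0.243 to 0.287 for the core and 0.403 to 0.513 for the cap later. The sets were not matched for level. At day 0 the median gene stood at 181.44 CPM in the standard core, 49.963 in the cap and 42.879 among all genes of at least 20 CPM. That minimum was not applied to the cap, whose lowest gene at day 0 stood at 2.94 CPM. The part of level in these differences was not tested.

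Day 0 cells also lacked more subunit genes. In day 0 cells 1 to 6, 12, 14, 17, 18, 19 and 20 of the 20 cap genes reached 1 CPM, and 11, 13, 14, 13, 14 and 14 of the 14 standard core genes. Cells 1 and 2 also had the fewest genes with a read of all 24, 5660 and 6815, and 24.2% and 11.8% mitochondrially encoded reads. The part of RNA quality in these counts was not tested. From day 3 on, every cell had all 34 at 1 CPM or more, except day 6 cell 3, which missed Psmd5 and Psmd9. At day 0, 20 of 120 cap values and 5 of 84 standard core values were under 1 CPM.

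Day 9 cell 3, with a core share of 53.0%, held the highest value of the day for 13 of the 20 cap genes and for 2 of the 14 standard core genes. With CT010467.1 left out of the totals these numbers were 12 and 1. Cap genes at their highest there included Psmd9 at 253 CPM, Psmd10 at 163, Psmc6 at 326 and Psmd2 at 363, while Psmd5 had 2.17 CPM, the lowest of the day.

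Other genes of the pathway gave the following values. Of the activators, Psme1 and Psme2, which form an interferon-inducible ring on the core, stood at 113 and 82.7 CPM at day 0, 65.0 and 32.9 at day 3, 273 and 191 at day 6, and 205 and 205 at day 9. The day 0 level of Psme1 rested on 1 cell with 469 CPM, and its day 3 ratio of -0.89 ranged from -1.29 to 1.11 when any 1 cell was left out. Psme2 at day 9 was higher than at day 3 by a relative log2 ratio of 1.97. Psme3, the nuclear activator, had 31.6 CPM at day 3 and 7.56 at day 0, and Psme4, which caps the core in place of the ATPases, 25.9 and 83.4. Of the 5 activators and inhibitors, 1 was at least 2-fold higher and 2 lower at day 3 (20.7% and 23.5% of all genes), 1 and 0 at day 6 (25.4% and 23.1%), and 1 and 2 at day 9 (25.2% and 23.8%).

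Of the 11 assembly chaperones and further cap proteins, 2, 1 and 1 were at least 2-fold higher at days 3, 6 and 9 (20.7%, 25.4% and 25.2% of all genes), and 3, 3 and 1 lower (23.5%, 23.1% and 23.8%). Uchl5, a deubiquitinase of the cap, was at 30.0 CPM at day 0 and 204 at day 9, with a relative ratio of 2.02. Ube3c, a ubiquitin ligase bound to the cap, was at 47.2, 14.9, 8.56 and 44.8 CPM at days 0, 3, 6 and 9. Its ratios to day 0 were -1.70, -2.82 and -0.78. Pomp, the chaperone of core assembly, had ratios of 0.14, 0.49 and -0.34.

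Vcp, the unfoldase that delivers ubiquitinated proteins to the proteasome, had 0 to 10.3 CPM in the day 0 cells and 13.3 to 106 in the day 3 cells. Uba1, the main ubiquitin-activating enzyme, had 0 to 39.1 and 53.3 to 113. In both genes every day 3 cell stood above every day 0 cell, as in 1.80% of all genes, with relative ratios of 3.06 and 2.15, and both were lower again at day 9 than at day 3, at -1.76 and -1.50. Of the 8 ubiquitin and unfoldase genes, 3, 2 and 2 were at least 2-fold higher at days 3, 6 and 9, and 1, 3 and 2 lower. Among the 9 genes of transcriptional control and substrate shuttles, 3, 2 and 2 were higher and 1, 1 and 3 lower. For both lists the shares of all genes were again 20.7%, 25.4% and 25.2% higher, and 23.5%, 23.1% and 23.8% lower. Nfe2l1, which induces proteasome genes when proteolysis is impaired, was at 21.0, 7.26, 36.8 and 9.75 CPM at days 0, 3, 6 and 9. Its day 0 value came with 105 CPM in 1 cell. Against day 0 the median relative ratios of these lists lay between -0.89 and 0.71, with that of all genes at 0 by construction.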

How the data were processed

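Each of 24 mESC libraries held the RNA of 1 cell; the DNA samples and K562 libraries of the series were not used here. The deposited files give raw read counts per gene ID, made by the authors without molecular identifiers. Per the submitters' processing notes, the tools were Bowtie2 2.2.9, Bismark and Trim Galore 0.6.7, with builds mm10 and hg38; for the RNA, aligner, counter, annotation and strand setting: not given in the sources used here. Closing lines that name no gene, 21.3% to 60.5% of all reads, were left out of the totals. Symbols were matched for 55141 of 55401 gene IDs.

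Counts were divided by gene reads per library (CPM) and summed over the cells of a day. Day ratios used log2(CPM + 1). They were taken where a pair of days held 20 or more reads in 2 or more libraries, and centred on the median gene; at least 2-fold means 1 or more, or -1 or less. Intervals are exact Poisson or binomial 95% intervals, for counting error only. With each day 1 sample, no test was made. No library repeated another: the lowest chi-square per degree of freedom between cells of a day was 35.5. Members and gene lists were chosen with earlier results of these data known. Members named are the 6 catalytic genes Psmb5 to Psmb10, members under 20 reads, and in each comparison the 5 with the highest and the 5 with the lowest ratio among those reaching 20 CPM on the higher day, with reads in most of its cells; others named, such as Psma8, Psmb1, Psmb2, Psmb11, Psmc1, Psmc3 and Psmd2, were chosen after their values were seen. Part of that rule, on reads per length, could not be applied. Alternatives were TMM (edgeR 4.0.16), DESeq2 1.42.0 size factors, other totals, pseudocounts and read minimums, means or medians over cells, and each cell left out. The scripts were tested on simulated data, in Python 3.11.15 (numpy 2.4.6, pandas 2.3.3, scipy 1.17.1, matplotlib 3.10.9) and R 4.3.3.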

Additional observations from a re-analysis of the deposited data

Results flagged for a closer look

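Among 120 groups of cells examined, 19 values stood far from the other cells of their day. A chance rate of about 1 in 20 groups would hold for independent groups only. Here the groups share cells, and many members were named for their extreme ratios, so the 19 are not read as an excess. No cause was tested for any of these values.

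At day 0, cell 6 had the highest share of inducible catalytic reads, 3.06%, and 6.93 CPM of Psmb9. In the same day cell 1 had 205.3 CPM of Psmc5 and 168.2 CPM of Psmd6, and cell 4 had 413.8 CPM of Psmd1. At day 3, cell 7 had an inducible share of 0.83% and 1.27 CPM of Psmb8, cell 6 had 807 CPM of Psma7, and cell 5 had 274.8 CPM of Psmc4 and 69.1 CPM of Psmd5. At day 6, cell 3 had 301.5 CPM of Psmd1 and 132.7 CPM of Psmd10, cell 2 had 62.7 CPM of Psmd5, and cell 4 had 111.1 CPM of Psmd9. At day 9, cell 3 had the lowest core share, 53.0%, with 252.7 CPM of Psmd9 and 162.7 CPM of Psmd10. Cell 2 of that day had an inducible share of 3.90%, and cell 1 was low in Psmb3, at 110.9 CPM.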

How the results depend on the processing

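Of 202 summary values under other settings, 176 were unchanged by the criterion used and 26 moved; of 1061 for single members, 1053 were unchanged, 2 moved and 6 reversed. When each cell was left out, members at least 2-fold higher numbered 6 to 9, 6 to 11 and 7 to 11 for days 3, 6 and 9 against day 0, and 1 to 5 for day 9 against day 3; those lower numbered 0 to 1, 0 to 2, 3 to 6 and 4 to 7. Medians over all core members with enough reads were then -0.51 to 0.04, 0.10 to 0.70, -0.33 to 0.21 and -0.14 to 0.26. Over the 14 standard core genes they were -0.46 to 0.27, -0.03 to 0.59, -0.30 to 0.26 and -0.13 to 0.27. Cap medians were 0.30 to 0.84, 0.06 to 0.65, 0.01 to 0.87 and -0.41 to 0.09. The core share was 67.8% to 73.2%, 60.2% to 62.8%, 69.4% to 73.6% and 62.6% to 70.0% by day, and the inducible share 0.0361% to 0.606%, 0.189% to 0.383%, 0.812% to 1.41% and 0.370% to 1.27%. Without Psmb6 in it, the inducible share was 1.05%, 4.58% and 3.00% at days 3, 6 and 9.

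Lower members at day 3 numbered 0 with a pseudocount of 10 or a minimum of 1 or 200 reads, and 3 without the day 0 cells above 10% mitochondrially encoded reads. At day 6, 16 were higher with medians of CPM and 16 with a minimum of 1 read, while 0 were lower with medians or a pseudocount of 10, and 2 without those day 0 cells. The median over all core members with enough reads at day 6 was 0.91 with a minimum of 1 read, and the cap median 0.93 with medians of CPM. At day 9, 15 were higher with a minimum of 1 read; 7 were lower with TMM or a pseudocount of 0.1, and 2 with medians, a pseudocount of 10 or a minimum of 1. Against day 3, 1 was higher at day 9 with means, 5 with medians, 6 with a pseudocount of 10 and 7 with a minimum of 1 read; 2 were lower with the last pair. Reversed values were Psmb4 at day 3 (-0.087), Psmb9 (-0.17) and Psmd3 (-0.15) at day 6 without those day 0 cells, Psmb8 (-0.12), Psmd5 (0.18) and Psmd10 (-0.085) at day 9 with medians, and Psmd9 at day 9 against day 3 without day 9 cell 3 (-0.38; without any 1 cell, -0.38 to 1.56). These reversed values are not all the changes of sign. Over the 2 day 0 cells below 10% mitochondrially encoded reads, Psmd14 went from -0.31, -0.32 and -0.32 to 1.6, 1.6 and 1.6 at days 3, 6 and 9. At day 3, Psma2 went from -0.24 to 0.84 and Psmd5 from 0.01 to -1.24. The causes were not tested.

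No paired analysis was possible because each library is 1 cell of an unnamed culture, a shared number links no cells, and no test was made. Comparisons per transcript length were not run. The interferon-related motifs and the core shares without day 0 cell 4 and day 9 cell 3 were chosen after seeing the data. With 5 to 7 cells a day and 3 reads worth 0.183 to 0.767 CPM, low genes such as Psmb8 and Psmb9 rest on few cells and reads. The parts of sequencing depth and of RNA capture in their low values were not tested.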
